A study of Mus musculus with 15 samples.

Results

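The 45 genes described here encode the machinery that carries proteins between the endoplasmic reticulum (ER) and the Golgi: the COPII and COPI vesicle coats, the receptors that load cargo into them, and the fusion proteins of the same step. They were chosen by name, and kept on their read counts in all 6 RNA libraries, which are the values that decided membership. All 45 were found among the 55335 gene identifiers in the files, and all 45 passed the filter on low counts (at least 0.627 CPM, the counts-per-million scale, in 3 libraries), as did 13077 genes in all. Kdelr3 lay nearest to that limit, with 2 to 21 reads per library, and no member fell below it. The list was drawn up with results of the same comparison in view, so its counts and medians are descriptions and carry no test.

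COPII vesicles form at ER exit sites, where the GTPase SAR1 is loaded by its exchange factor SEC12 (PREB), the inner coat of SEC23 and SEC24 takes up cargo, and SEC13 with SEC31 forms the outer cage. COPI vesicles, built from coatomer and ARF GTPases, return escaped ER proteins and receptors from the Golgi and the compartment between them. In B-lineage cells this route carries immunoglobulin chains and other surface proteins, and it is known for its expansion when B cells become antibody-secreting plasma cells.

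The study is of mouse pre-B cells, which are bone marrow B-cell precursors, and RNA of a line with a CRISPR/Cas9 knockout of Msl2, a ubiquitin ligase of the MSL chromatin complex, was compared with that of the clone it was made from. Each group had 3 libraries of total RNA depleted of ribosomal RNA. All 6 came from cells lacking SLP65 (Slp65KO), an adaptor of pre-B cell receptor signalling, which were grown from 1 cell as a clone in medium with IL7 and had no other treatment. The knockout line was made by electroporation of an Msl2 guide, and age, sex and strain were not given in the sources used here.

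Each genotype is therefore 1 cell line, and nothing in the labels says that the 3 libraries came from separate cultures, so a p-value here reflects how far these libraries vary among themselves, and that variation may be technical. The groups follow the sample titles (MSL2WT-preB and MSL2KO-preB). The genotype tags say the opposite for all 6 libraries, and every direction given here depends on the titles. Msl2 itself had 97.1, 99.3 and 92.3 CPM in the wild-type libraries and 105, 103 and 121 CPM in the knockout libraries (adjusted p = 0.302 in edgeR's quasi-likelihood test), and whole-gene counts cannot show a small edit, so they do not check the labels. Total counts ran from 14092278 to 20803227 per library. A count of 3 reads corresponds to between 0.141 and 0.212 CPM.

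Markers of the B lineage were present in all libraries, with a summed level of 2963 to 3282 CPM in the wild type and 2995 to 3020 CPM in the knockout, and 11 of their 12 genes passed the filter. Summed T and NK cell markers reached at most 2.14 CPM and summed myeloid markers at most 1.02 CPM. The erythroid and megakaryocyte list summed to between 132 and 190 CPM, nearly all of it from Hbb-bt, while the alpha-globin gene Hba-a1 had at most 1 read.

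Promoter windows of the members were examined for elements of the unfolded protein response, the stress pathway whose transcription factors XBP1 and ATF6 induce secretory genes. RefSeq windows of GRCm38.p6, from 250 bases before to 50 bases after a start site, were matched for 40 of the 45 genes (44 windows). The motif TGACGTG, the core of the element bound by XBP1 and ATF6, was searched on both strands and lay in the windows of 7 of the 40 genes: Arf1, Copb1, Copb2, Kdelr3, Mia3, Sec23a and Sec24d. These are 17.5% of the 40 members searched, beside 3.47% of the 8899 tested genes with a window. Of all 32851 windows, 2.01% held the motif. The matches that begin before the start site are shown because they let the members that carry the motif be compared with their expression below. Capitals mark the motif, which reads CACGTCA where it is on the opposite strand. The windows are Sec24d (chr3:123267435-123267491, plus strand, the match beginning at base -26 from the start site), Mia3 (chr1:183369630-183369686, minus strand, base -86), Kdelr3 (chr15:79516344-79516400, plus strand, base -29), Copb1 (chr7:114254686-114254742, minus strand, base -27) and Copb2 (chr9:98563690-98563731, plus strand, base -6), with the start site as base 0.
Sec24d: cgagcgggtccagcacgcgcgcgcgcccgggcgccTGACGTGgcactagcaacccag
Mia3: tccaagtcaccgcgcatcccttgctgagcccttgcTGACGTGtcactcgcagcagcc
Kdelr3: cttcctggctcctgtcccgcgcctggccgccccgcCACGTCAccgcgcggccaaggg
Copb1: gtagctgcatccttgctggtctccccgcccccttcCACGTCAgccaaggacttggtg
Copb2: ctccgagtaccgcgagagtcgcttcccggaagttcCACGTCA
The start site of Sec24d used here lies inside the annotated span of the gene, which begins at 123264801. The match of Sec23a lay after its start site. Arf1 has 2 overlapping windows that hold the same match, before the start site of 1 and after that of the other. Neither gene's match is printed. A match is a run of letters and not a shown binding site.

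The fitted log2 fold changes of the 7 genes with the motif were of both signs, and only that of Sec24d was called. No window of Lman1, the other member called, was searched, so whether it holds the motif is not known here. Member windows on chromosome 18, where Lman1 lies, were left out, while those of the tested genes were kept. Sec24d fell, Sec23a had its highest values in the knockout libraries (adjusted p = 0.0557), and the other 5 had log2 fold changes of -0.15 (Mia3), -0.05 (Arf1), -0.03 (Copb2), 0.02 (Copb1) and 0.39 (Kdelr3), none of them past the threshold. The longer ER stress element, CCAAT and CCACG separated by 9 bases, was searched on both strands and was in 0 of the 40 genes, against 0.18% of tested genes with a window, and its second form (ATTGG and CCACG, 1 base apart) was in 0 against 0.101%. The CCAAT box alone, searched on both strands, was in 45% of these members and in 43.4% of the tested genes.

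Of the 45 genes, 2 fell in the knockout and 0 rose at an adjusted p under 0.05 (edgeR's quasi-likelihood test over 13077 genes, Benjamini-Hochberg adjustment). The genes that fell were Sec24d, a cargo-binding COPII subunit, and Lman1, the lectin receptor ERGIC-53 that carries coagulation factors and other glycoproteins out of the ER. The members called are 4.44% of the list, beside 4.59% of all genes tested (600 genes), and no reading is made of this, since the list was named with this contrast in view. By direction, 2.79% of all genes were called lower and 1.8% higher. Without a correction, 9 members were lower and 1 was higher at p under 0.05, where 8.43% of all genes were lower and 6.94% higher. DESeq2 called 4 members lower (Surf4 and Tmed5 beside these) and 1 higher (Sec23a), and 0 were called by edgeR without the first or the third library of either group.

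For most of the pathway the group means were close. The mean change was under 10% for 31 members and under 20% for 41, and in 40 of 45 the 95% interval of the log2 fold change lay within ±0.5. The median log2 fold change was -0.08, against 0.00 over all genes tested, and 30 members had a negative value, beside 49% of all genes. In 9 members all 3 knockout libraries lay below all 3 wild-type libraries (11.2% of all genes), and in 1 all lay above (9.68% of all genes). These 9 were Sec24d, Lman1, Mcfd2, Tmed2, Tmed5, Tmed9, Surf4, Bet1 and Gosr2, and the gene above was Sec23a. In bulk RNA, fewer cells of a type and less RNA per cell cannot be told apart.

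**Figure D1:**
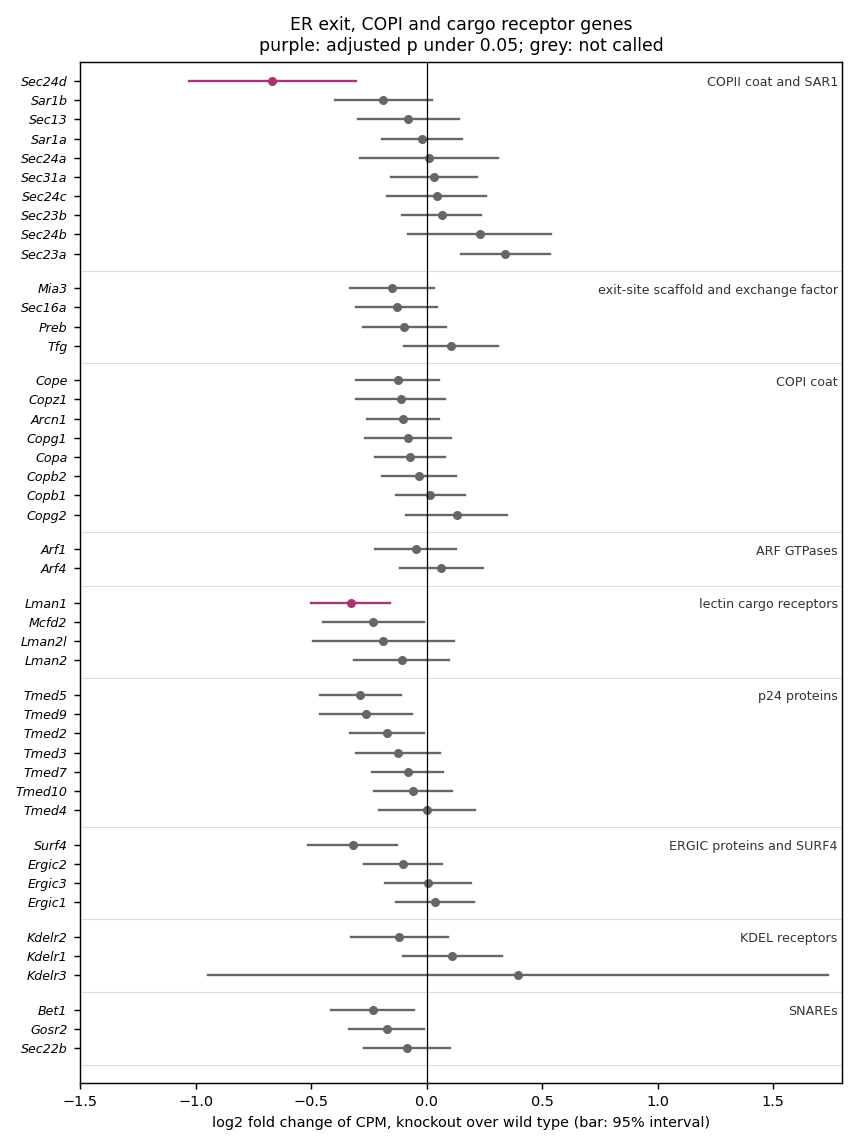
Log2 fold change of CPM (knockout over wild type, x axis) for each of the 45 genes, grouped by role, with points for the fitted value and bars for its 95% interval (3 libraries per group). Sec24d and Lman1, in purple, are the 2 genes called, and Kdelr3 has by far the widest bar, from -0.95 to 1.74.

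Some libraries held the extremes for many of these genes. The third wild-type library was the highest of its group for 30 of the 45 members, against 38.5% of all genes tested. The first knockout library was the lowest of its group for 23 members, against 36.5% of all genes, and the third knockout library was the highest of its group for 23, against 34.4%. Without the third wild-type library, the members' median log2 fold change was -0.04 and neither gene was called. The summed level of the 45 genes was 5365, 5425 and 5833 CPM in the wild type and 5101, 5196 and 5388 CPM in the knockout, so the groups overlapped on the sum, since the third knockout library lay above the first wild-type library.

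Among the COPII coat genes, Sec24d fell and Sec23a had the largest positive log2 fold change. Sec24d (ENSMUSG00000039234.11, chromosome 3, 123264801 to 123365641 in GRCm38.p6) is 1 of the 4 SEC24 paralogs, which recognise the export signals of cargo. Its level was 22.8, 17 and 22.6 CPM in the wild-type libraries and 12.6, 15.6 and 10.8 CPM in the knockout libraries. Every knockout library lay below every wild-type library, although the second library of each group came close to the other group. The means were 20.8 ± 3.3 and 13 ± 2.46 CPM (SD, n = 3 per group), 1.59-fold lower in the knockout, with a log2 fold change of -0.67 (SE 0.162) and an edgeR adjusted p of 0.0461. The call was lost on leaving out the first or the third library of either group (adjusted p from 0.117 to 0.154), on scaling by library totals (0.0720), on keeping genes above 2 in mean log2 CPM (0.0660), and with limma-voom (0.0553).

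The other SEC24 genes did not pass the test. Sec24a was at 26.6, 29.8 and 20.9 CPM in the wild type and 23.3, 28.1 and 26.5 CPM in the knockout, with overlapping groups and a log2 fold change of 0.01 (95% interval -0.29 to 0.31). Sec24b, its closest relative, was at 36.7, 36.3 and 25.2 CPM against 36.7, 42.1 and 36.3 CPM. The low value of the third wild-type library separates its group means, and the log2 fold change was 0.23 (adjusted p = 0.520). Sec24c, the closest relative of Sec24d, was at 110, 126 and 131 CPM in the wild type and at 113, 125 and 139 CPM in the knockout. Its groups overlapped, with a log2 fold change of 0.04 (95% interval -0.17 to 0.26).

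Sec23a encodes an inner coat subunit that activates the GTPase of SAR1. The gene (ENSMUSG00000020986.13, chromosome 12, 58958384 to 59012017) was at 50, 45.2 and 49.8 CPM in the wild type and at 66.7, 59.9 and 56.9 CPM in the knockout. It was the one member with all knockout libraries above all wild-type libraries. Its mean was 1.27-fold higher, 48.3 ± 2.74 against 61.2 ± 5.03 CPM (SD, n = 3 per group), with a log2 fold change of 0.34 (SE 0.0866) and an edgeR adjusted p of 0.0557, just short of a call. With DESeq2 its adjusted p was 0.0244, and with library totals as the scaling 0.0436. Its paralog Sec23b was at 146, 151 and 161 CPM against 153, 155 and 172 CPM, with overlapping groups and a log2 fold change of 0.07 (95% interval -0.10 to 0.24).

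The outer cage and the GTPases showed no call. Sec13 was at 188, 187 and 236 CPM in the wild type and at 184, 193 and 202 CPM in the knockout, with the third wild-type library alone above the rest. Sec31a, its cage partner, had a log2 fold change of 0.03 (95% interval -0.15 to 0.22). Sar1a was at 187, 189 and 217 CPM against 196, 195 and 195 CPM, with a spread of only 0.661 CPM (SD, n = 3) among the knockout libraries, which lay inside the wild-type range. Sar1b, the paralog needed for chylomicron export in the intestine, was at 46.6, 44.3 and 52.5 CPM against 45.6, 39.8 and 40.5 CPM (log2 fold change -0.19, adjusted p = 0.397), and its groups overlapped in 1 knockout library.

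The scaffold genes of the exit site did not pass the test, with log2 fold changes between -0.15 and 0.11. Mia3 encodes TANGO1, which helps package large cargo such as collagens, and was at 101, 108 and 119 CPM in the wild type and at 94.1, 97.6 and 103 CPM in the knockout. Only the third knockout library reached into the wild-type range. Preb, the SAR1 exchange factor, was at 52.1, 60.4 and 58.7 CPM against 52.4, 55.1 and 52.8 CPM. Its first wild-type library lay below all knockout libraries. Sec16a, the organiser of exit sites, and Tfg, which forms assemblies at their face, had log2 fold changes of -0.13 and 0.11 (adjusted p = 0.517 and 0.692).

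The 8 coatomer genes stayed within a narrow range, from a log2 fold change of -0.12 (Cope) to 0.13 (Copg2), and their intervals all lay within ±0.5. Copa, the alpha subunit, was at 335, 329 and 319 CPM in the wild type and at 312, 304 and 321 CPM in the knockout, with a log2 fold change of -0.07 (95% interval -0.22 to 0.08). Of its knockout libraries, only the third lay within the wild-type range. The summed coatomer level was 1499, 1481 and 1549 CPM against 1455, 1427 and 1482 CPM. Copg1 was at 118, 130 and 131 CPM against 108, 123 and 128 CPM, and the other gamma subunit gene, Copg2, at 83.6, 77.8 and 72.5 CPM against 97.2, 80.9 and 77.7 CPM. The groups overlapped for both, and the first knockout library was the lowest for Copg1 and the highest for Copg2. The subunits beta (Copb1), beta prime (Copb2), delta (Arcn1) and zeta (Copz1) had log2 fold changes of 0.02, -0.03, -0.10 and -0.11.

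Arf1, the GTPase that recruits coatomer to membranes, was at 371, 387 and 418 CPM in the wild type and at 361, 373 and 403 CPM in the knockout, with a log2 fold change of -0.05 (95% interval -0.22 to 0.13). Arf4, which acts with it at the early Golgi, was at 83.5, 88.3 and 96.2 CPM against 88.8, 91.4 and 100 CPM (log2 fold change 0.06, 95% interval -0.12 to 0.24). The groups overlapped in both genes.

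Of the 4 lectin cargo receptor genes, Lman1 fell and 3 did not pass the test, and all 4 had a negative log2 fold change. Lman1 (ENSMUSG00000041891.16, chromosome 18, 65980739 to 66002635) was at 190, 177 and 205 CPM in the wild type and at 146, 152 and 157 CPM in the knockout, with a clear gap between the groups. The means were 191 ± 13.8 and 152 ± 5.55 CPM (SD, n = 3 per group), 1.25-fold lower in the knockout, a log2 fold change of -0.33 (SE 0.0769) and an edgeR adjusted p of 0.0405. The call was lost without any 1 library other than the second wild-type library (adjusted p from 0.0794 to 0.154), and the log2 fold change stayed between -0.38 and -0.27 over the alternatives run. Mcfd2, the calcium-binding partner of LMAN1 in the export of coagulation factors, had means of 29.4 ± 2.23 and 25.1 ± 1.85 CPM (SD, n = 3 per group), with separate groups, a log2 fold change of -0.23 and an edgeR adjusted p of 0.297.

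Lman2 encodes VIP36, a related lectin, and was at 322, 340 and 400 CPM in the wild type and at 310, 333 and 343 CPM in the knockout. Lman2l, the VIP36-like lectin, was at 16.3, 14.7 and 11.6 CPM against 12.4, 12.8 and 12.1 CPM. In both the groups overlapped, with log2 fold changes of -0.11 and -0.19 (adjusted p = 0.696 and 0.617). The third wild-type library was the highest for Lman2 and the lowest of all for Lman2l.

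The p24 proteins are small membrane proteins of COPII and COPI vesicles, some of which carry lipid-anchored cargo. Of the 7, 0 passed edgeR's test (3 had an unadjusted p below 0.05, all lower, and DESeq2 called 1), and 6 had a negative log2 fold change, with Tmed4 at 0.00. Tmed5 (ENSMUSG00000063406.11, chromosome 5, 108121556 to 108132620) was at 205, 206 and 221 CPM in the wild type and at 158, 181 and 179 CPM in the knockout. The groups were separate, the log2 fold change was -0.29 (SE 0.0786), and the edgeR adjusted p was 0.0724. Tmed4 was at 29, 33.4 and 31.3 CPM against 33.4, 29.6 and 30.8 CPM, with groups that covered the same range. Tmed9 and Tmed2 also had separate groups, at log2 fold changes of -0.26 and -0.17 (adjusted p = 0.166 and 0.284), while Tmed10, Tmed7 and Tmed3 overlapped at -0.06, -0.08 and -0.12. The summed p24 level was 843, 846 and 912 CPM in the wild type and 749, 769 and 789 CPM in the knockout. The sums of 4 of the 9 role groups did not overlap between wild type and knockout. These were the p24 proteins, the lectin receptors, the SNAREs, and the ERGIC proteins with SURF4. Each also holds genes whose own libraries overlapped between wild type and knockout. Ergic1, Ergic2 and Ergic3 all overlapped, so Surf4 was the only gene of its group with separate libraries. Among the lectin receptors, only Lman1 and Mcfd2 were separate. No test was made of these sums, and no share of such sums over all genes was computed.

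Surf4, a receptor for several soluble secreted proteins, was at 196, 194 and 230 CPM in the wild type and at 157, 163 and 176 CPM in the knockout (ENSMUSG00000014867.9, chromosome 2, 26920041 to 26933776). All knockout libraries were lower. The log2 fold change was -0.32 (SE 0.0863), or a mean 19.9% lower, and the edgeR adjusted p was 0.0697. With DESeq2, the adjusted p was 0.0175 for Surf4 and 0.0210 for Tmed5. The ERGIC proteins, which cycle between the ER and the Golgi, lay close to 0: Ergic3 was at 58.9, 50.9 and 60 CPM against 57.9, 56.9 and 55.3 CPM (95% interval of the log2 fold change -0.18 to 0.19), and Ergic1 and Ergic2 had log2 fold changes of 0.04 and -0.10.

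**Figure D2:**
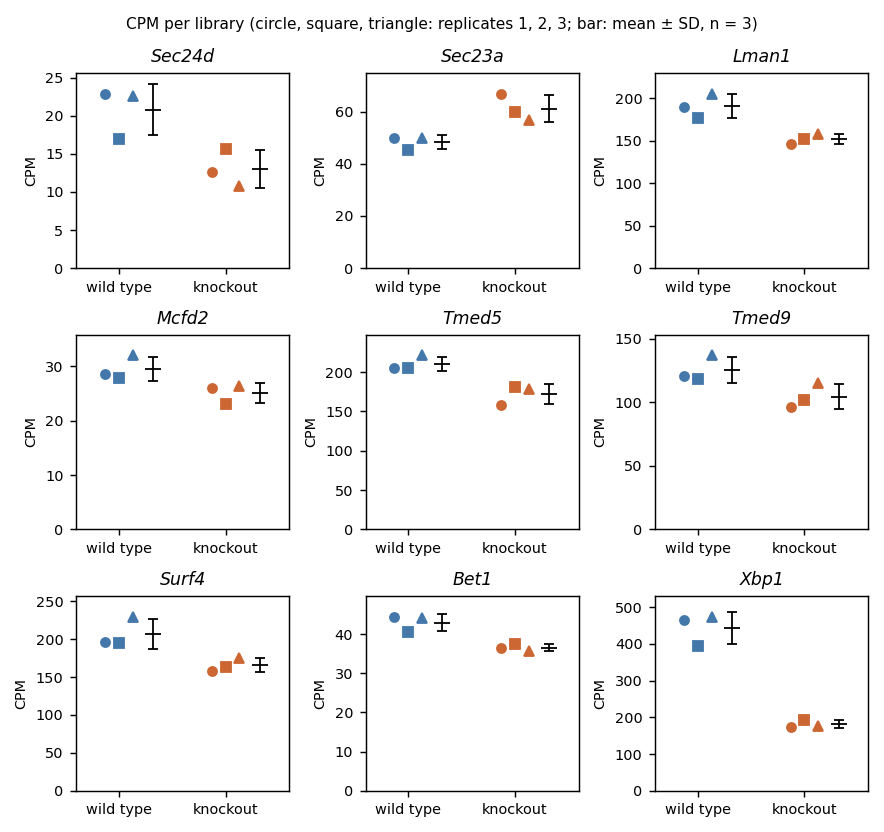
CPM on the y axis in each library for 8 of the genes and for Xbp1, with circles, squares and triangles for replicates 1, 2 and 3 and bars for the mean and SD (n = 3). All knockout points lie above the wild type for Sec23a and below it for the others, with the widest gap for Xbp1. The 8 members shown are all among those whose groups did not overlap, and most of the 45 members, not shown, did overlap.

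The KDEL receptors return ER chaperones that have escaped to the Golgi, and 0 of the 3 passed edgeR's test, 0 had an unadjusted p below 0.05, and DESeq2 called 0. Kdelr1 was at 31.9, 32 and 34.6 CPM in the wild type and at 38.6, 31.8 and 36 CPM in the knockout (log2 fold change 0.11, adjusted p = 0.696). Kdelr2 was at 64.4, 64.1 and 77.4 CPM against 58.8, 63.9 and 67.2 CPM (log2 fold change -0.12, adjusted p = 0.661). Both overlapped between the groups. Kdelr3 had 7, 6 and 10 reads in the wild type and 2, 21 and 12 reads in the knockout. Its 95% interval ran from -0.95 to 1.74. With so few reads and this spread between libraries, a difference of the size seen for Sec24d was not detectable.

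The SNAREs drive fusion of ER-derived vesicles with the Golgi, and 0 of the 3 passed edgeR's test, 2 had an unadjusted p below 0.05, both lower, and DESeq2 called 0. Bet1 was at 44.4, 40.4 and 44 CPM in the wild type and at 36.5, 37.4 and 35.7 CPM in the knockout, with separate groups and a log2 fold change of -0.23 (adjusted p = 0.168). Gosr2 was at 109, 109 and 118 CPM against 95.2, 98.2 and 105 CPM, also separate, with a log2 fold change of -0.17 (adjusted p = 0.285). Sec22b, the R-SNARE of the same complex, had a log2 fold change of -0.08 and overlapping groups.

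**Figure D3:**
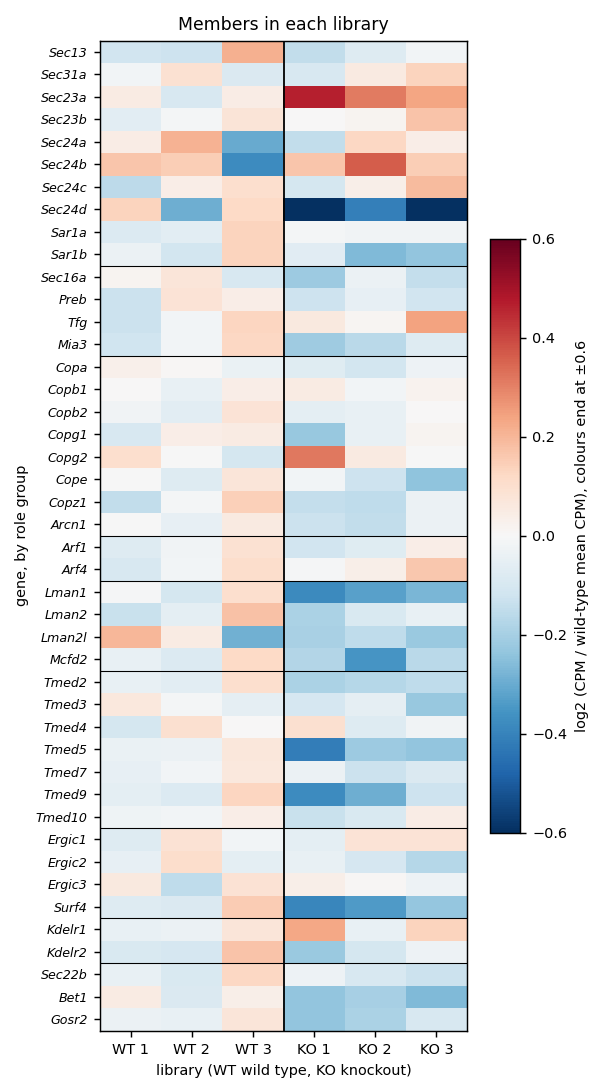
Log2 CPM of each gene and library minus the mean of its 3 wild-type libraries, shown as colour, with genes as rows by role and libraries as columns. Kdelr3 is left out because of its few reads. The rows of Sec24d, Lman1, Tmed5 and Surf4 are below 0 in all knockout columns, and that of Sec23a is above 0. Rows of many other genes are also below 0 in all knockout columns, among them Mcfd2, Copa, Arcn1, Copz1 and Mia3. Those of Sec23b and Sec24b are also above 0 in all of them.

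Ratios of paralogs within a library do not depend on the scaling between libraries and show where a pair moved unequally. The log2 ratio of Sec24c to Sec24d was 2.26, 2.89 and 2.54 in the wild type and 3.17, 3.00 and 3.69 in the knockout, higher in all 3 knockout libraries, by 0.73 on average (1.65-fold). That of Sec23a to Sec23b was -1.54, -1.74 and -1.69 against -1.20, -1.37 and -1.60, and overlapped because of the third knockout library. That of Sar1a to Sar1b was 2.01, 2.10 and 2.05 against 2.11, 2.30 and 2.27, without overlap. The ratio that varied least was that of Arf1 to Arf4: it was 2.15, 2.13 and 2.12 against 2.03, 2.03 and 2.01, a small difference of -0.11 beside SDs of 0.0162 and 0.00908. The pairs Sec24a with Sec24b, Copg1 with Copg2 and Kdelr1 with Kdelr2 overlapped, at differences of -0.22, -0.21 and 0.22. No test is given for the 7 pairs, since the list was named on the same contrast. The share of other gene pairs with separate ratios was not computed. Of single genes tested, 11.2% had all knockout libraries below the wild type and 9.68% had all above.

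**Figure D4:**
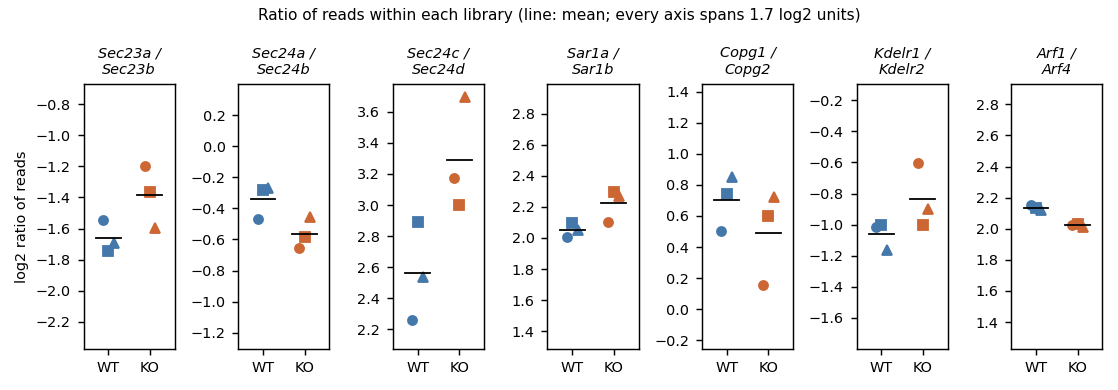
Log2 ratio of CPM of 2 paralogs within each library (y axis) for the 7 pairs, with wild-type and knockout libraries as points. The groups do not overlap for Sec24c to Sec24d, Sar1a to Sar1b and Arf1 to Arf4, and overlap in the other 4. The share of other gene pairs that would not overlap was not computed.

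Around these genes, 71 further genes of the ER to Golgi route and its regulators were in the files and 63 were tested, of which 3 fell and 0 rose. Over all genes tested, 2.79% were called lower and 1.8% higher, and no reading is made of the count. The 34 tested tethers, SNAREs and RAB1 genes had 0 calls with edgeR and with DESeq2 and a median log2 fold change of -0.01, with 2 below and 0 above at an unadjusted p under 0.05. The other coat genes had 1 call among 13, Arf2, an ARF GTPase close to ARF1. Arf2 was at 29.1, 24 and 25.8 CPM in the wild type and at 18.5, 18.9 and 19.3 CPM in the knockout (log2 fold change -0.47, SE 0.101, adjusted p = 0.0255), and the call was lost without the first wild-type library or any 1 knockout library (adjusted p of at least 0.0621). The other cargo adaptors had 1 call among 11, the p24 gene Tmed6, with 17, 13 and 14 reads against 2, 4 and 1 (adjusted p = 0.00976), too few reads for a firm fold.

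Xbp1, the transcription factor of the unfolded protein response that drives secretory genes in plasma cells, was the call among the 5 tested transcription factors and stress sensors of the pathway (ENSMUSG00000020484.19, chromosome 11, 5520641 to 5525993). It was at 465, 394 and 474 CPM in the wild type and at 173, 194 and 176 CPM in the knockout. Its mean was 2.45-fold lower, with a log2 fold change of -1.30 (SE 0.0915) and an edgeR adjusted p of 6.82e-05, and it was called in all 14 alternatives run. Of the other 4, edgeR called 0 and 2 had an unadjusted p below 0.05. These were Atf6b, a relative of Atf6, and Ern1, the ER stress sensor that splices Xbp1 RNA, which were named after their values were seen. Both had all knockout libraries above the wild type, with log2 fold changes of 0.25 and 0.27 (edgeR unadjusted p = 0.0119 and 0.0472, adjusted p = 0.139 and 0.316). Atf6 and Creb3 both overlapped between the groups at -0.14. Counts do not separate spliced from unspliced Xbp1. Beside this, none of the 45 genes changed as far: the log2 fold changes of the members ranged from -0.67 to 0.39.

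Among 8 plasma cell markers, 5 were tested and 3 were called lower in the knockout (edgeR adjusted p from 0.00333 to 0.00963). Of all genes tested, 2.79% were called lower. Sdc1 fell from 25.1 ± 6.03 to 11.6 ± 1.05 CPM and Derl3 from 27.9 ± 1.77 to 13 ± 3.11 CPM (SD, n = 3 per group). Mzb1 fell from 49 ± 5.59 to 33.6 ± 1.25 CPM (SD, n = 3 per group). The other 2 tested markers were not called and overlapped between the groups: Jchain was at 10.9 ± 1.93 and 11.8 ± 8.53 CPM and Irf4 at 130 ± 47.7 and 108 ± 16.1 CPM (SD, n = 3 per group, edgeR adjusted p = 0.946 and 0.676). The summed level of the list was 214 to 294 CPM in the wild type and 172 to 183 CPM in the knockout. Irf4 gave 89.8 to 182 CPM of that sum in the wild type and 91.2 to 123 CPM in the knockout. The defining gene Prdm1 had 0, 3 and 0 reads against 0, 1 and 0. Of the B-lineage markers, 1 fell, the IL7 receptor gene Il7r, from 82 ± 12.5 to 28.1 ± 11.3 CPM (SD, n = 3 per group, edgeR adjusted p = 0.00392). The part of these markers in the values of Sec24d and Lman1 was not tested.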

How the data were processed

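Raw counts per gene were deposited by the authors for 6 RNA libraries, 1 whole number per gene, per the file headers. Tools listed for the series are STAR 2.5.3a, featureCounts 2.0.0 and limma, on mm10, per the submitters' processing notes, which state neither their order nor their use. Not given in the sources used here are the annotation, the strand setting and the treatment of multi-mapping reads, so reads of overlapping or near-identical genes may be shared. The 9 ChIP and input samples were not analysed here. Of 55335 gene identifiers, 54587 matched a symbol with their version, 567 without it (Mia3 and Xbp1 among them) and 181 had none. Gene spans came from RefSeq (GRCm38.p6).

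Counts were tested with edgeR 4.0.16 in R 4.3.3 (filterByExpr, TMM scaling, quasi-likelihood test, Benjamini-Hochberg adjustment over all 13077 tested genes, threshold 0.05), without covariates, after the code was tested on simulated data. CPM values use TMM-scaled library sizes and are not per gene length, so levels are not compared between genes. Replicates of a group differed by more than counting noise (chi-square per degree of freedom from 6.53 to 17.5), and none was counted as a duplicate. Values in every library are given for called members, the 2 members with the smallest p in each direction, the highest and lowest member of each role group, and paralog pairs. The members and lists were chosen with earlier results of these data known. Alternatives were RLE scaling, library totals, 2 other filters, DESeq2 1.42.0, limma-voom (limma 3.58.1), a replicate block and leaving out libraries.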

Additional observations from a re-analysis of the deposited data

How the results depend on the processing

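The members' median log2 fold change kept its sign under every alternative run, between -0.11 and -0.04, and 28 to 33 members were negative. The number called lower, 2 in the main analysis, was 1 with library totals, a cut at 2 in mean log2 CPM, limma-voom, or without both libraries numbered 2, and 4 with no filter, DESeq2 or the replicate block. It ranged from 0 to 2 on leaving out 1 library. The number called higher, 0 in the main analysis, was 1 (Sec23a) with library totals, no filter, DESeq2 or the replicate block. Related genes called lower went from 3 to 5 with no filter, DESeq2 or the block, and from 2 to 4 without 1 library. The cause was not tested.

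Libraries of the same number had correlations of 0.0294, 0.212 and 0.403 in their deviations from the group means. Wild-type libraries 2 and 3 correlated best with the knockout library of their own number. Wild-type library 1 correlated best with knockout library 2 (0.272). These values do not settle whether the numbers mark pairs, and the main test did not use them as pairs. With the replicate block, Sec24d had an adjusted p of 0.0664, and 381 genes were higher and 565 lower over all genes, against 235 and 365. Over all genes, 482 of 26696 were higher and 721 lower without a filter, and 158 and 195 of 9569 with the cut at 2 in mean log2 CPM, where fewer genes were tested.

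Sign changes were limited to uncalled genes near 0. Sar1a was at 0.00366 with library totals. Tmed4 was at -0.00375 with no filter, -0.00485 with limma-voom and -0.000766 with the block. Ergic3 was at -0.0650 without both libraries numbered 2. On leaving out 1 library, the log2 fold change ran from -0.0911 to 0.00353 for Arf1, -0.00656 to 0.0417 for Copb1, -0.0652 to 0.0122 for Copb2, -0.00108 to 0.0818 for Ergic1, -0.0688 to 0.0510 for Ergic3, -0.0578 to 0.0559 for Sar1a, -0.139 to 0.0411 for Sec13, -0.118 to 0.128 for Sec24a, -0.0325 to 0.113 for Sec24c, -0.0164 to 0.0952 for Sec31a and -0.0501 to 0.0510 for Tmed4.

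Leaving out 1 library leaves 2 in that group. Kdelr3 had 2 to 21 reads per library, and the other 44 members 163 to 7953.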

Other observations

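The motif AAGATGG, the core letters of sites of YY1, a zinc finger factor that was also profiled by ChIP in the series, was searched on both strands of the members' promoter windows. It lay in the windows of 9 of the 40 members searched (22.5%): Arf1, Copb2, Copz1, Lman2, Lman2l, Preb, Sec16a, Sec23b and Tmed9. Of the tested genes with a window, 8.93% held it, and of all windows 6.34%. Neither Sec24d nor Lman1 is among the 9, and no window of Lman1 was searched, since member windows on chromosome 18 were left out. The match is a description of letters only, and its part in the expression values was not tested.

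Tmed8 and Bcap31, cargo genes outside the 45 and named after their values were seen, lay just outside the threshold. Tmed8 had a log2 fold change of -0.40 (edgeR adjusted p = 0.0503), and Bcap31, a cargo receptor of the ER membrane, had one of -0.34 (edgeR adjusted p = 0.0656). In both, all 3 knockout libraries lay below all 3 wild-type libraries.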
